A study of Caenorhabditis elegans with 2 samples.

Results

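The regions described here are places on the nuclear genome of the nematode Caenorhabditis elegans where chromatin recovered with GFP-tagged UNC-130 gave a candidate peak at a gene for a small nucleolar RNA (snoRNA) or a small nuclear RNA (snRNA). A region was a member when its summit, the position of highest signal, lay within 200 bp of such a gene and not within 200 bp of a tRNA gene. The class of a member is that of its nearest gene. This rule chose 280 of the 22106 regions in the authors' list from pooled replicates, of which 22082 were nuclear. Of the members 175 lay at snoRNA genes and 105 at snRNA genes, and 1 further region was left out because a tRNA gene was near.

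The study mapped UNC-130, a forkhead transcription factor, by chromatin immunoprecipitation and sequencing (ChIP-seq) in 1 group of 2 biological replicates. The worms were hermaphrodite young adults of strain AGK541, taken whole 56 hours after synchronization as starved L1 larvae. They carried armSi1, a transgene on chromosome II in which Pmex5, a germline promoter, drives UNC-130::GFP with the tbb-2 3'UTR beside cb-unc-119(+), and also unc-119(ed3)III and niDf199IV. Both replicates shared these alleles, no second genotype or untagged strain was in the series, and an antibody against GFP recovered the protein; another label gives the antibody as unc-130. The labels' notes also name a FLAG tag. The promoter places the fusion protein in the germline rather than where unc-130 is normally active, while the chromatin came from the whole animal. The lists give regions without read counts, so how deeply either replicate was sequenced is not known here.

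Box C/D snoRNAs guide methylation and H/ACA snoRNAs guide pseudouridylation of ribosomal RNA. Spliceosomal snRNAs remove introns, and spliced leader RNAs, annotated here as snRNA genes, donate their leader to the 5' end of many worm messages by trans-splicing. Many animal snRNA genes are switched on through a proximal sequence element (PSE), bound by the complex SNAPc, a short way before the gene. Genes read by RNA polymerase III in the manner of tRNA genes carry an A box and a B box instead, which the factor TFIIIC binds. Many snoRNA genes lie in introns of protein-coding genes and can be released from the host transcript, and others have a promoter of their own.

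A pair of sequence types stood before many, though not all, of the genes with an optimal region, and they are shown because the positions and shares below are described by them. Of the genes with an optimal region 21 of 69 snoRNA and 9 of 21 snRNA genes matched neither, Y23H5B.10 and sls-2.1 among them. Each line gives 30 bases before the gene on the gene's strand of WBcel235, 5' to 3'. In the first set the capitals mark a PSE-type element, searched as CGNAACNC and TGTC with 5 to 7 bases between them, in a snoRNA gene in an intron (ZK994.7, chrV:8500490-8500519, + strand; C08D8.3, chrV:8349042-8349071, + strand), in snRNA genes in introns (sup-6, chrII:12945003-12945032, - strand; sup-39, chrII:6968593-6968622, - strand; W05B2.8, chrIII:10989603-10989632, + strand) and in independent snRNA genes (sls-2.8, chrIII:12250397-12250426, + strand; F54D8.7, chrIII:5080945-5080974, - strand).
ZK994.7: ggttggCGAAACCCgactcaTGTCggccac
C08D8.3: gctcggCGAAACTCgtggagTGTCggcggc
sup-6: gagcggCGGAACCCgccacaTGTCggcaca
sup-39: cagctgCGAAACCCgcgagaTGTCcgaaca
W05B2.8: ccccagCGGAACCCatgacaTGTCtgctac
sls-2.8: acccggCGGAACCCggcaaaTGTCcgtcca
F54D8.7: gaattgCGGAACCCacgagaTGTCtgccgc

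In the second set the capitals mark an A box, searched as TGGCNNAG, or a B box, searched as GTTCNANNC, before the snoRNA genes W03C9.9 (chrII:11960815-11960844 for the A box and chrII:11960861-11960890 for the B box, + strand), Y43F8C.22 (chrV:19643222-19643251 and chrV:19643188-19643217, - strand), F30H5.4 (chrIII:502770-502799, + strand) and Y75B12B.12 (chrV:15191094-15191123, - strand).
W03C9.9, A box: tgacaccgttgTGGCGCAGgcgggtagcgg
W03C9.9, B box: cacgccgcggGTTCGACCCccccccccccg
Y43F8C.22, A box: gttgctacccgTGGCTTAGtggctaacgcg
Y43F8C.22, B box: cctgccgcccacagcttccggGTTCGATTC
F30H5.4, B box: cgcgaccgttGTTCGACCCccacgcagtgt
Y75B12B.12, B box: caaacaacagacgcggGTTCAACTCctcag

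Regions at snoRNA and snRNA genes were on the authors' final list far more often than nuclear regions at large. The final list, called optimal, holds the pooled regions at or above a signal of 53.5. It took in 98 of the 280 members (35%, 95% Wilson interval 29.7–40.8), against 1047 of the 21802 other nuclear regions (4.8%, 4.53–5.09), and 5.19% of all nuclear regions. At a stricter threshold, which only 2.64% of all nuclear regions passed, 66 members remained (23.6%). The median pooled signal, which is on the authors' own scale, was 35.7 for members and 16.6 for the other nuclear regions. The median member stood in the top 10.6% of nuclear regions. All these intervals cover the counting of regions only, and the members were not tested as a set.

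Of the snoRNA regions 71 of 175 were optimal (40.6%, 33.6–48) and of the snRNA regions 27 of 105 (25.7%, 18.3–34.8). These intervals overlap. The median signal was 39.4 at snoRNA genes and 33.1 at snRNA genes. Counted by gene, 149 of 346 snoRNA genes had a region (43.1%, 38–48.3) and 69 had an optimal one (19.9%, 16.1–24.5). Of 129 snRNA genes 76 had a region (58.9%, 50.3–67) and 21 an optimal one (16.3%, 10.9–23.6). The intervals for any region do not overlap between the classes, while those for an optimal region do. With summits up to 500 bp away the shares with any region were 58.4% of snoRNA and 58.9% of snRNA genes, and this separation was lost. A summit counted for its nearest gene only. A further 7 genes lay within 200 bp of a member's summit that was nearer to another gene, and counting them too gave 152 snoRNA and 80 snRNA genes with a region. In all, 225 genes had a region, 55 of them with 2 entries, and 8 members lay within 200 bp of more than 1 such gene.

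In the pooled list intronic and independent genes gave strong regions at like shares in both classes, with intervals that overlap widely. A gene counted as intronic when it lay inside an intron of a protein-coding transcript on its own strand, as independent when it overlapped no protein-coding gene, and otherwise as other. Intronic snoRNA genes gave 26 optimal regions of 62 (41.9%, 30.5–54.3) and independent ones 33 of 74 (44.6%, 33.8–55.9), with median signals of 41.0 and 39.4. In each replicate alone the members were those of its own list. The best 1145 nuclear regions of that list took the place of the optimal list. By this other measure the snoRNA shares lay further apart. They were 27 of 76 intronic (35.5%) and 33 of 76 independent (43.4%) in replicate 1. In replicate 2 they were 19 of 64 (29.7%) and 30 of 66 (45.5%). Intronic snRNA genes gave 9 of 32 (28.1%, 15.6–45.4) and independent ones 14 of 54 (25.9%, 16.1–38.9), with medians of 35.8 and 31.2. Of the remaining snoRNA genes, those overlapping coding genes on the opposite strand only gave 10 of 26 (38.5%). Those overlapping an exon on the same strand gave 2 of 13 (15.4%). Together these remaining snoRNA genes gave 12 of 39 (30.8%), and 46.9% in the list of replicate 2 alone. The remaining snRNA genes gave 4 of 19 (21.1%), and 41.2% in that list. In every one of these sets the share was above the 5.19% of all nuclear regions.

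**Figure D1:**
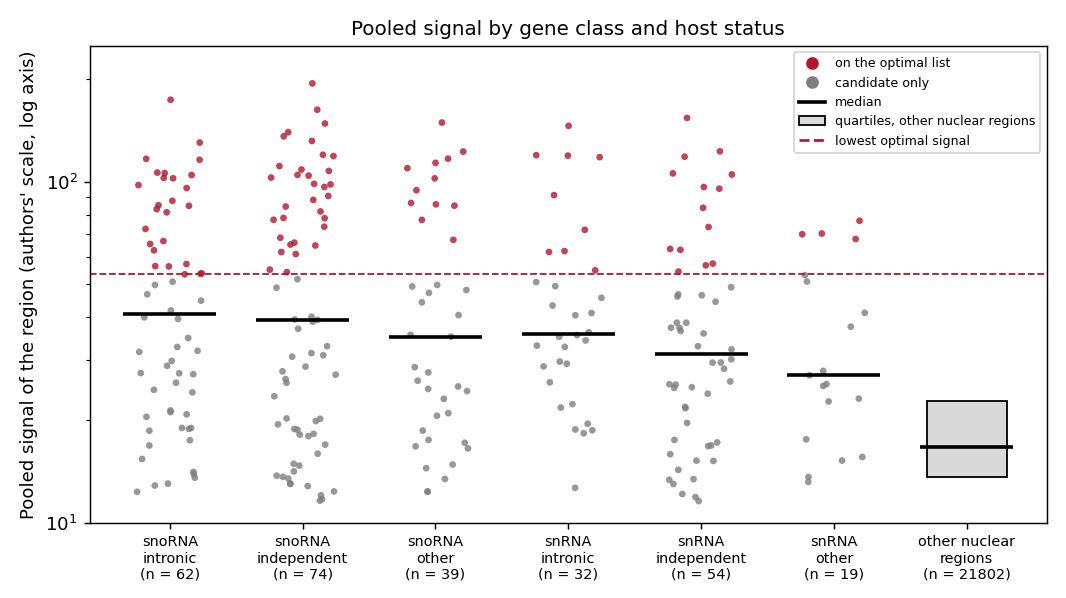
Pooled signal of every member (points, log axis, authors' scale) by gene class and host status, with the quartiles and median of the 21802 other nuclear regions at the right. Red points are on the optimal list, which starts at the dashed line (53.5). The medians of the 6 sets lie between 27.1 and 41.0, all above the upper quartile of the other nuclear regions (22.7).

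By gene rather than by region, 26 of 150 intronic snoRNA genes had an optimal region (17.3%, 12.1–24.2) and 31 of 124 independent ones (25%, 18.2–33.3). Any region was found at 52 intronic snoRNA genes (34.7%, 27.5–42.6) and at 63 independent ones (50.8%, 42.1–59.4). The 2 intervals for any region overlap narrowly. The 98 intronic snoRNA genes without a region were the largest single group of genes that the lists left uncovered. For snRNA genes the shares with any region were 24 of 36 intronic (66.7%, 50.3–79.8) and 37 of 62 independent genes (59.7%, 47.3–71).

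Most of the strong snoRNA regions lay just before the gene. Of 66 snoRNA regions with a summit 1 to 100 bp before the 5' end, 42 were optimal (63.6%, 51.6–74.2), with a median signal of 70.4. Summits more than 100 and up to 200 bp before the gene gave 1 of 19 (5.26%, 0.935–24.6), near the 5.19% of all nuclear regions. Those inside the gene gave 20 of 54 (37.0%, 25.4–50.4) and those past its 3' end 8 of 36 (22.2%, 11.7–38.1). The interval for the first 100 bp does not overlap those of the other positions. The 175 regions came from 149 genes, and entries at the same gene are counted apart. The intervals here and for the positions below are therefore too narrow to compare genes. The optimal summits before snoRNA genes had a median distance of 38 bp from the 5' end (quartiles 20.5 and 50 bp, n = 43), and the candidate ones that were not optimal 84.5 bp (n = 42).

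At intronic snoRNA genes the strong summits lay both before and inside the gene, away from the start of the host. Of their 26 optimal summits 14 lay before the small RNA gene, at a median of 25 bp, 10 inside it and 2 past it. The optimal shares 1 to 100 bp before the gene, 13 of 24 (54.2%, 35.1–72.1), and inside it, 10 of 18 (55.6%, 33.7–75.4), were alike. The host's nearest transcript start was a median of 1695.5 bp away, over 1000 bp for 22 of the 26. Of these 26 genes 1 was in the first intron of the host transcript it was assigned to. Of the 33 optimal summits at independent snoRNA genes 21 lay before the gene, at a median of 44 bp, 8 inside it and 4 past it. There the share was 21 of 29 within 100 bp before the gene (72.4%, 54.3–85.3) and 8 of 22 inside it (36.4%, 19.7–57.0), with intervals that overlap narrowly.

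At snRNA genes the strong summits were not gathered before the gene. Of their 27 optimal summits 10 lay before the 5' end, 10 inside and 7 past the 3' end. Summits 1 to 100 bp before the gene were optimal in 10 of 30 cases (33.3%, 19.2–51.2), those inside in 10 of 31 (32.3%, 18.6–49.9), and those past the 3' end in 7 of 38 (18.4%, 9.22–33.4). These intervals overlap one another. None of the 6 summits further than 100 bp before an snRNA gene was optimal, against 5.19% of all nuclear regions.

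**Figure D2:**
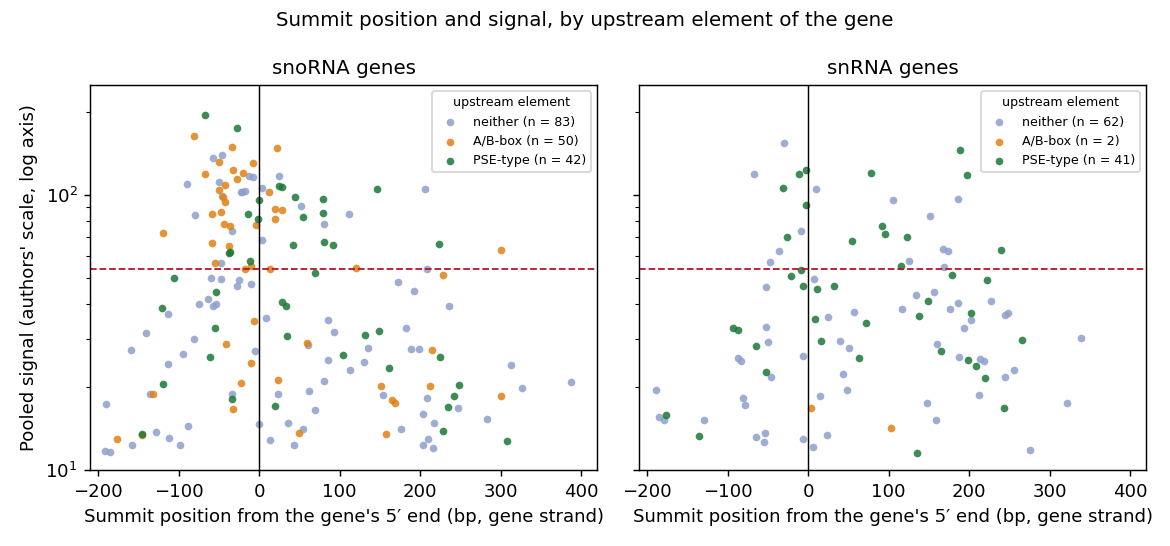
Pooled signal (log axis, authors' scale) against the position of the summit relative to the gene's 5' end on the gene's strand, for snoRNA regions (left) and snRNA regions (right), coloured by the element found before the gene. Points above the dashed line are optimal. At snoRNA genes the regions of highest signal crowd within 100 bp before the 5' end, while at snRNA genes they spread from before the gene to its 3' flank.

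The 2 kinds of upstream element were counted on the gene's strand in the 120 bp before every snoRNA and snRNA gene. The strings were chosen after the upstream sequences of the genes with optimal regions had been seen, so the shares are a description and were not tested. A PSE-type element stood before 34 snoRNA genes and 33 snRNA genes, against 9 of 19973 protein-coding genes (0.0451%). The snRNA entries mir-1831, which lies inside sup-39, and T27E4.12, which overlaps T27E4.22, share their element with that gene. Neither has a region of its own. An A box or a B box stood before 53 snoRNA genes with no PSE-type element, and 516 protein-coding genes (2.58%) had such a match. No snoRNA gene had both kinds, and 1 snRNA gene, F54D8.7, did.

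Almost every gene with a PSE-type element had a region. This held for 33 of 34 snoRNA genes (97.1%, 85.1–99.5) and 29 of 33 snRNA genes (87.9%, 72.7–95.2), and 18 (52.9%, 36.7–68.5) and 12 (36.4%, 22.2–53.4) of them had an optimal one. Of 259 snoRNA genes with neither kind of match 75 had a region (29.0%, 23.8–34.8) and 21 an optimal one (8.1%, 5.4–12.1). Of 94 such snRNA genes 45 had a region (47.9%, 38.1–57.9) and 9 an optimal one (9.6%, 5.1–17.2). The intervals of the genes with a PSE-type element lie above those of the genes with neither in all 4 of these comparisons. Because the string was chosen on genes with optimal regions, this separation was partly fixed by that choice and is no test. Of the 4 PSE-type snRNA genes without a region of their own 2 lay within 200 bp of a summit assigned to a nearer gene.

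Genes with an A or B box upstream stood in between for regions of any strength and level with the PSE-type genes for optimal ones. Of the 53 such snoRNA genes 41 had a region (77.4%, 64.5–86.5) and 30 an optimal one (56.6%, 43.3–69.0). Both boxes were present before 12 of the 69 snoRNA genes with an optimal region, 0 of the 80 with a weaker region alone and 1 of the 197 with none. Some element stood before 48 of the 69 (69.6%), 26 of the 80 (32.5%) and 13 of the 197 (6.6%). For snRNA genes, where nearly all matches were PSE-type, some element stood before 12 of 21 genes with an optimal region (57.1%), 19 of 55 with a weaker one (34.5%) and 4 of 53 with none (7.5%).

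**Figure D3:**
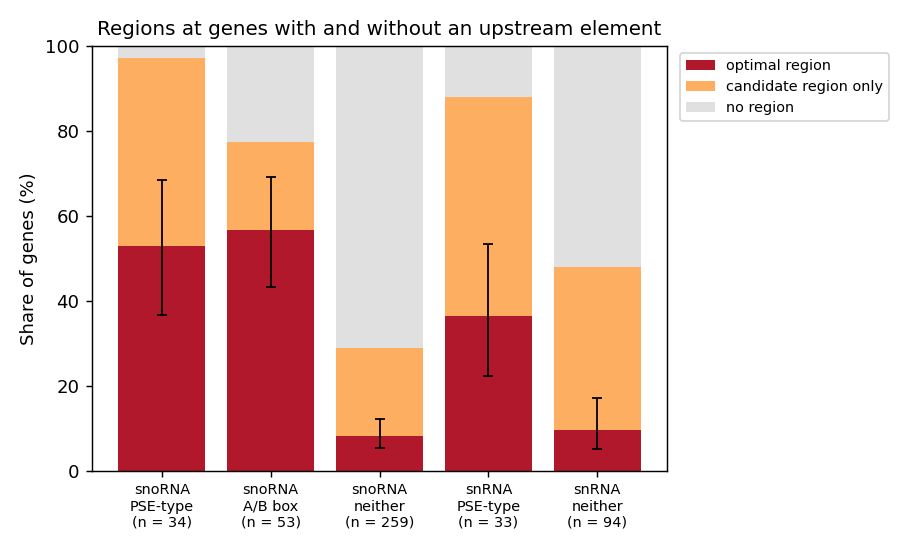
Share of genes (%) with an optimal region (red), with a weaker candidate region alone (orange) and with none (grey), by class and by the element in the 120 bp before the gene. Error bars are 95% Wilson intervals of the optimal share. Of the snoRNA genes 97.1% with a PSE-type element and 77.4% with an A or B box had a region, against 29.0% with neither.

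The same split ran through the intronic snoRNA genes. All 10 with a PSE-type element had a region and 8 had an optimal one (80%, 49–94.3). Of 24 with an A or B box 18 had a region and 12 an optimal one (50%, 31.4–68.6). Of 116 with neither, 24 had a region (20.7%, 14.3–28.9) and 6 an optimal one (5.2%, 2.4–10.8). Intronic snoRNA genes with an optimal region thus carried an element of their own in 20 of 26 cases, against 6 of the 98 intronic genes without a region.

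Elsewhere in the genome the PSE-type string went with few optimal regions. It occurred 1245 times on the 6 nuclear chromosomes. Of the 65 copies in the 120 bp before a snoRNA or snRNA gene on its strand, 56 lay within 200 bp of a candidate summit (86.2%) and 29 within 200 bp of an optimal one (44.6%). Of the 1174 copies more than 200 bp from every such gene, 222 lay near a candidate summit (18.9%) and 3 near an optimal one (0.256%). The string was chosen on genes with optimal regions, so the higher shares before such genes were partly fixed by that choice.

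The summits stood differently to the 2 kinds of element. At snoRNA genes with an optimal region the summit of highest signal lay a median of 16.5 bp from the centre of the A box (quartiles 10.2 and 67.5 bp, n = 20) and 29 bp from that of the B box (19 and 39.8 bp, n = 22). It lay within 50 bp of the box for 14 of the 20 A boxes and 19 of the 22 B boxes. On the gene's strand the summit was past the A box in 16 of 20 cases and before the B box in 15 of 22. The A box was centred a median of 55 bp and the B box 10 bp before the gene.

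At PSE-type genes the summit lay further along, towards or over the transcribed sequence. The element was centred a median of 53 bp before snoRNA genes and 53.5 bp before snRNA genes. The summit was a median of 87 bp past it at snoRNA genes (quartiles 48 and 131.5 bp, n = 18) and 147 bp past it at snRNA genes (93.2 and 189.8 bp, n = 12). It was past the element in 17 of 18 snoRNA and in 12 of 12 snRNA cases, and within 50 bp of it in 5 and 2 cases. Of the 31 optimal regions at snoRNA genes with an A or B box 23 had a summit before the gene, against 7 of the 19 at snoRNA genes with a PSE-type element.

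**Figure D4:**
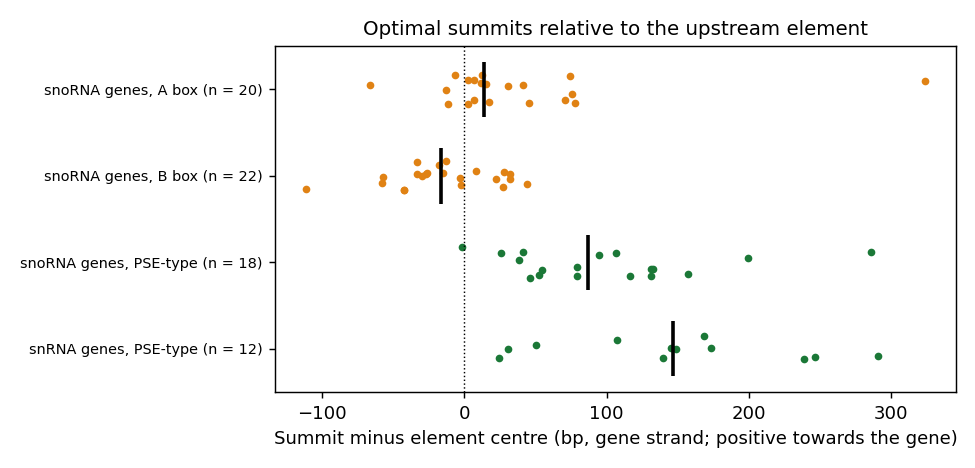
Distance in bp from the centre of the upstream element to the optimal summit of highest signal of the same gene, positive towards the gene. Points are genes and bars are medians (14 bp for A boxes, -16.5 bp for B boxes, 87 bp for PSE-type elements of snoRNA genes and 147 bp for those of snRNA genes). Summits at genes with A and B boxes gather around 0, and those at PSE-type genes lie almost wholly to the right of it.

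The intronic snoRNA gene of highest signal was ZK994.7, in an intron of pxn-1, which encodes a peroxidasin of the extracellular matrix. Its region at chrV:8500416-8500643 had a signal of 173.8 in the pool, 87.7 in replicate 1 and 88.9 in replicate 2, ranks 38 and 23 among the nuclear regions of the replicates. The summit lay 28 bp before the gene and 5662 bp from the nearest start of the host. Both replicates therefore placed it among their strongest nuclear regions. Y43F8C.22, whose RNA ends in ACA 3 bases from the 3' end as H/ACA guides do, lies in an intron of Y43F8C.7. Its region at chrV:19643110-19643306 had a signal of 130.2 (75.8 in replicate 1 and 53.8 in replicate 2), with the summit 8 bp before the gene, inside the B box shown above.

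The RNAs of C05D2.15, D1046.6 and C10C6.8 also end in such an ACA tail, and none of these genes matched an element string. C05D2.15, in an intron of the MADF-domain gene madf-11, had a signal of 116.7 at chrIII:5601977-5602406 (72.4 in replicate 1 and 46.2 in replicate 2). D1046.6, in an intron of cfim-2, which encodes a subunit of a cleavage factor for messenger RNA 3' ends, had 115.9 at chrIV:8927042-8927471 (66.3 and 48.9), and the summit also fell in the promoter window of cfim-2. C08D8.3, a PSE-type gene inside C08D8.1, had 106.3 at chrV:8348921-8349350 (46.4 and 59.3), with the summit 28 bp into the gene. C10C6.8, in an intron of the transport ATPase gene catp-8, had 106.0 at chrIV:11473972-11474401 (66.2 and 36.8). All 6 genes ranked 559 or better among the nuclear regions of both replicates.

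The independent snoRNA gene F59C6.15 had the highest signal of all members, 194.1, at chrI:10517106-10517377 (100.3 in replicate 1 and 93.7 in replicate 2). It carried a PSE-type element, and its summit lay 67 bp before the gene. W03C9.9 has the box motifs of a C/D guide and an A box and a B box upstream. It had 162.5 at chrII:11960707-11960951 (88.7 and 69.6), with the summit 81 bp before the gene, and a weaker optimal entry of 54.3 past the gene at chrII:11960803-11961232 (43.2 and 21.1). F30H5.4, also with C and D boxes, had 131.6 at chrIII:502685-502832 (75.5 and 58.1), with the summit 50 bp before the gene.

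Y75B12B.12, with a B box, had 148.1 at chrV:15191002-15191182 (76.3 in replicate 1 and 74.4 in replicate 2). Its summit lay 22 bp into the gene. Y23H5B.10 had 139.6 at chrI:2514226-2514421 (70.5 and 65.0), and ZK265.10 had 135.8 at chrI:8259474-8259611 (68.8 and 65.9). Neither of these 2 matched an element string, and their summits lay 46 and 57 bp before the gene. All 6 independent genes ranked 148 or better in both replicates.

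The sup-6 and sup-39 genes, known as suppressor loci that encode U1 snRNA, had the highest signals among snRNA genes in introns. Each had 2 optimal entries. For sup-6, in an intron of F58G1.7, they were 145.8 past the gene at chrII:12944564-12944993 (70.5 in replicate 1 and 78.0 in replicate 2) and 119.2 before it at chrII:12944925-12945091 (60.1 and 58.2). For sup-39, in an intron of C15F1.5, they were 118.0 past the gene at chrII:6968146-6968575 (77.5 and 51.8) and 91.3 before it at chrII:6968346-6968775 (46.7 and 36.0). In both genes the entry past the 3' end, 188 and 197 bp from the 5' end, was thus the stronger one.

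W05B2.8 lies in an intron of the dynein heavy chain gene dhc-4, 19813 bp from the nearest start of that host. Its region at chrIII:10989542-10989971 had a signal of 119.6 (67.5 in replicate 1 and 52.2 in replicate 2), with the summit 78 bp into the gene. The spliced leader gene sls-2.5, in an intron of the glutamate receptor gene glr-2, had 72.2 at chrIII:7140243-7140672 (32.5 and 38.6). Y57G11C.35 had 2 entries of 62.6 and 62.2 at chrIV:14764645-14765074 and chrIV:14764855-14765284, which share 1 region of replicate 1 (39.5) and had 27.9 and 22.4 in replicate 2. F10D2.13, in an intron of the glycosyltransferase gene ugt-37, had 54.9 at chrV:7142528-7142957 (33.6 and 27.7), just above the lowest optimal signal.

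Among independent snRNA genes 3 SL2 spliced leader genes led. The gene sls-2.1 had 153.8 at chrII:5844696-5844878 (91.1 in replicate 1 and 67.4 in replicate 2), with the summit 30 bp before the gene, and a second optimal entry of 54.5 past it. The gene sls-2.8 had 122.7 at chrIII:12250247-12250676 (75.6 and 48.6), with the summit 3 bp before the gene. For sls-2.4 the entry before the gene had 118.3 at chrI:4171955-4172234 (63.3 and 67.3) and the entry past it 83.8 (the same 63.3, from a shared region, and 24.2). All 3 summits also fell in the promoter window of a protein-coding gene, that of the egg activation gene egg-5 for sls-2.4.

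F54D8.7 had 105.7 at chrIII:5080714-5081143 (61.0 in replicate 1 and 48.9 in replicate 2), in the promoter window of cox-6A, a subunit of cytochrome c oxidase. H27M09.6 had 105.0 at chrI:6847078-6847507 (39.1 and 53.2), in that of syp-4, a protein of the synaptonemal complex. C52E4.8 had 96.4 at chrV:11980089-11980518 (62.1 and 38.2), 186 bp past the gene's 5' end and in the window of snr-4, which encodes an Sm protein. Whether such a region belongs to the small RNA gene or to the coding gene cannot be told apart here.

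The annotation names few snRNA genes by kind, so the genes were also grouped by sequence, joining genes of at least 80% identity. Genes named sls-1, sls-2 or smy kept the family of their name, also where identity was lower. The median identity between pairs was 76.1% among the SL2 genes and 72.0% among the smy genes. The 18 SL2 genes had 23 regions at 16 genes, and 7 genes had an optimal one. The 13 genes of the sup-6 and sup-39 family had 18 regions at 11 genes, and 4 genes had an optimal one. These families also held the highest median signals, 38.6 and 42.9, together with 39.4 for the 5 genes around C52E4.8 and 38.0 for the 12 genes around C53B4.9. A PSE-type element stood before 9 of the 18 SL2 genes and 10 of the 13 genes of the sup-6 and sup-39 family.

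Other snRNA families had regions at many genes but fewer strong ones. The 19 genes around C05G6.4 had a region at 15 and an optimal one at 3, and none of them matched the PSE-type string. The 23 genes around B0205.15 had a region at 11 and an optimal one at 2, W05B2.8 and F54D8.7. The SmY genes annotated as snRNA, whose RNAs take part in trans-splicing, had a region at 4 of 10, none optimal and none above a signal of 22.3. Of the SmY genes annotated as snoRNA and counted there, smy-3 had an optimal region of 81.8 and smy-2 a weaker one of 25.7, both with a PSE-type element. The 12 SL1 genes sls-1, the source of the main spliced leader, had no region, and the nearest nuclear summit was at least 5713 bp away.

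Identical copies limit what can be said of single snRNA genes. All 12 SL1 genes had an identical copy elsewhere in the nuclear genome, as did 17 of the 23 genes around B0205.15 and 11 of the 19 around C05G6.4, but 0 of the 18 SL2 genes and 0 of the sup-6 and sup-39 family. How reads from such copies were placed is not given in the sources used here, and its part in the results was not tested. Of 31 snRNA regions at genes with an identical copy 6 were optimal (19.4%), and of 74 at genes without one 21 (28.4%). The sequences of W05B2.8 and F54D8.7 each occur at 17 places in the nuclear genome and that of C52E4.8 at 2, so the copy behind those regions is uncertain. Only 3 of the 346 snoRNA genes had an identical copy.

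Both replicates held the strong members. A replicate region containing the member's summit was found for 252 of the 280 in replicate 1, for 232 in replicate 2 and for 212 in both (75.7%). All 98 optimal members were found in both replicates. The pooled and optimal lists come from these same 2 replicates, so this was partly fixed by how they were made. The 68 members that were missing from a replicate had a pooled signal of at most 38.6. Among the best 1145 nuclear regions of replicate 1 were 103 members (36.8%, against 5.3% of that list) and among those of replicate 2 there were 97 (34.6%, against 5.56% of that list). Both lists shared 77 of them, and of the optimal members 73 were among the best in both, 15 in replicate 1 alone, 8 in replicate 2 alone and 2 in neither.

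The order of the members was similar in the replicates but not tight among the strongest. Across the 212 members found in both, the rank correlation of the replicate signals was 0.71 (Spearman's rho, given as a description, since the regions come from the same 2 libraries), 0.77 over 135 snoRNA and 0.55 over 77 snRNA regions, and 0.44 over the 98 optimal members. The widest gaps among optimal members were at sls-2.2, with 60.4 and rank 202 in replicate 1 but 15.5 and rank 3688 in replicate 2, and at T24H7.6, with 16.9 and rank 3780 in replicate 1 but 35.2 and rank 622 in replicate 2. These 2 were chosen after their values were seen. Some pooled entries at 1 gene matched the same replicate region, so 17 matches in replicate 1 and 16 in replicate 2 repeat another member's value. With each replicate region kept for 1 member, 98 and 91 members were among the best of the replicates.

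**Figure D5:**
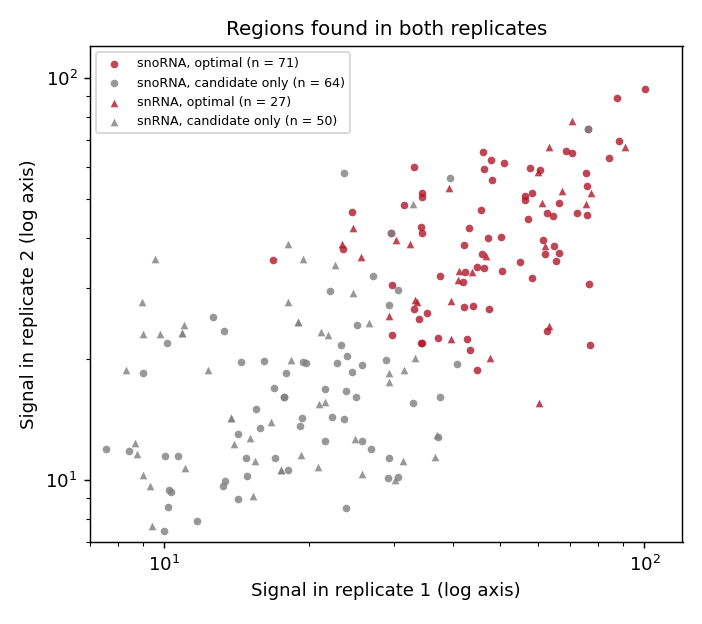
Signal in replicate 1 against signal in replicate 2 (both log axes, authors' scale) for the 212 members found in both, with snoRNA regions as circles and snRNA regions as triangles. Red symbols are optimal members, which reach furthest to the upper right but overlap the candidates at lower signals. The lone dark point among the strong optimal members, near 76 and 74, is a weak second entry at Y75B12B.12. It falls in the same replicate regions as the strong entry there.

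The final list cuts through a continuous range of member signals. The 3 members just inside it were T19C4.12 (53.5 in the pool, 34.3 in replicate 1 and 21.9 in replicate 2), T24H7.6 (53.7, 16.9 and 35.2) and C14C10.8 (53.9, 33.1 and 26.6), all snoRNA genes in introns. The 3 just outside it were sls-2.18 (53.2, 18.1 and 38.6), F47G4.9 (51.8, 40.7 and 19.4) and the second entry at F42C5.12 (50.9, 22.7 and 34.2). In both sets the replicate values overlapped.

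Most strong snoRNA regions lay outside promoters of protein-coding genes. A promoter window ran from 1000 bp before to 200 bp after a protein-coding transcript start. Of the 71 optimal snoRNA regions 21 had a summit in such a window (29.6%), against 761 of all 1145 nuclear optimal regions (66.5%). Of 118 snoRNA regions outside any window 50 were optimal (42.4%, 33.8–51.4), against 384 of all 13790 nuclear regions outside one (2.78%, 2.52–3.07). Inside a window 21 of 57 snoRNA regions were optimal (36.8%, 25.5–49.8), against 761 of all 8292 nuclear regions there (9.18%, 8.57–9.82). The 2 snoRNA intervals overlap, while those of all nuclear regions do not.

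Strong regions at independent snRNA genes, by contrast, were mostly in such windows. Of their 14 optimal regions 12 lay in one (85.7%). Inside a window 12 of 27 were optimal (44.4%, 27.6–62.7) and outside 2 of 27 (7.41%, 2.06–23.4), and these intervals do not overlap. The regions came from only 37 genes and the optimal ones from 11. Entries at the same gene are counted apart here, so the intervals are too narrow to compare genes. At intronic snRNA genes 3 of 10 in a window and 6 of 22 outside one were optimal. The intronic members of both classes lay in 71 host genes, 3 of them for ribosomal proteins. The promoter window of the host itself held an optimal region for 9 of the 71, and 14 intronic members, 3 of them optimal, lay in the window of their own host. Of all 19973 protein-coding genes 7285 had a candidate region in their window and 1056 an optimal one. The hosts were not tested against them.

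Members were found on all 6 nuclear chromosomes and least on X. On chromosome X there were 7 members, 1 of them optimal (14.3%, 2.57–51.3), against 94 of all 2626 nuclear regions there (3.58%, 2.93–4.36). X also had the fewest nuclear regions of the 6 chromosomes. Of the 36 snoRNA and snRNA genes on X 7 had a region (19.4%, 9.8–35). Chromosome II had 53 members of which 27 were optimal (50.9%, 37.9–63.9), against 5.80% of all its nuclear regions. On the other autosomes the optimal share of members was between 25.7% on IV and 39.6% on V, against 5.28% and 4.27% of all nuclear regions there.

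The snoRNA genes were also split by the box motifs of the RNA itself. The C box TGATGA within 20 bases of the 5' end and the D box CTGA within 20 of the 3' end were both present at 14 snoRNA genes, of which 6 had an optimal region (42.9%, 21.4–67.4). An ACA tail was present at 58 genes, of which 14 had one (24.1%, 15–36.5). The 274 genes with neither, which strict strings leave unclassed, had 49 (17.9%, 13.8–22.9). The 3 intervals overlap. A PSE-type element stood before 5 of the 14 genes with C and D boxes and before 0 of the 58 with an ACA tail, where 15 had an A or B box.

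In 200 bp windows around the summit, searched on both strands, the PSE-type element was more frequent at members of both classes than at nuclear regions in general. The A and B boxes were more frequent at snoRNA regions. At snRNA regions their shares were lower, with intervals that take in the nuclear shares. The PSE-type element was in 38 of 280 member windows (13.6%) and in 0.514% of the windows of other nuclear regions. The A box was in 22.9% of snoRNA and 3.81% of snRNA windows, against 7.66% of all nuclear windows, and the B box in 19.4% and 3.81%, against 8.73%. The snRNA interval was 1.49–9.39 for either box. The B box was in 38.0% of the optimal snoRNA windows and 6.73% of the other snoRNA windows. For the A box these shares were 33.8% and 15.4%. Among the 98 optimal members the A box was in 25.5% and the B box in 29.6%, against 14.8% and 18.7% of the 1047 optimal regions that are no member, so the boxes were frequent there too. The PSE-type element was in 15.3% of these members, against 0.287% of those other optimal regions. The string TATAAA was in 20.4% of member windows and 23.5% of all nuclear windows. The forkhead consensus GTAAACA was in 3 of 175 snoRNA windows (1.71%, 0.585–4.92) and 2 of 105 snRNA windows (1.90%, 0.524–6.68), against 2.21% of all nuclear windows and 3.15% of the optimal ones that are no member, and its reversed control ACAAATG in 4% and 3.81%, against 4.32%. Mean GC content was 43.4% in member windows and 37.5% in the windows of other nuclear regions, and its part in these shares was not tested.

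Among protein-coding genes that make or use these RNAs, the optimal share was highest in the short box C/D list. Of 64 listed genes 57 were matched in the annotation and 46 had a candidate region in their promoter window, 14 of them an optimal one (30.4%, against 14.5% of all protein-coding genes with such a region). The box C/D list held 4 optimal of 6 with a region. These were the methyltransferase fibrillarin gene fib-1 (96.3 in the pool, 47.1 in replicate 1 and 44.8 in replicate 2), the core protein genes nol-56 (74.0, 39.8 and 32.6) and nol-58 (84.3, 55.6 and 28.6), and ruvb-1 (54.7, 35.1 and 28.1), an ATPase that helps assemble the particles. The regions of fib-1, nol-58 and ruvb-1 also lie in the windows of mut-15, zip-4 and tofu-1. In the H/ACA list 1 of 4 was optimal, K01G5.5, the gene dkc-1 for the pseudouridine synthase dyskerin (109.5, 57.0 and 49.5), whose window is shared with ran-1.

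The other lists are read against the same 14.5%. For SNAPc and RNA polymerase III initiation 1 of 9 genes with a region had an optimal one, near that share, snpc-3.4, a SNAPc subunit gene (109.6 in the pool, 62.9 in replicate 1 and 44.8 in replicate 2). For the Integrator complex, which cuts snRNA 3' ends, 2 of 10 did, also near it, ints-4 (88.7, 45.8 and 45.9) and ints-8 (65.6, 38.5 and 27.1). For Sm, LSm and assembly proteins 6 of 17 did, led by smn-1 (183.1, 99.0 and 85.8), which helps load Sm proteins onto snRNAs and shares its window with klp-16. The others were snr-1 (119.5, 57.2 and 64.9) and snr-4 (96.4, 62.1 and 38.2) for Sm proteins, and lsm-3 (75.5, 41.9 and 37.2), lsm-6 (58.9, 32.5 and 26.3) and lsm-8 (56.0, 23.2 and 32.3) for LSm proteins. The regions of snr-1, lsm-3 and lsm-6 also lie in windows of other coding genes, snx-13, mdt-9 and Y71G12B.13 among them. The region of snr-4 is also the region of the snRNA gene C52E4.8.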

How the data were processed

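Region lists on ce11, the same assembly as WBcel235, were used as the authors deposited them, 1 per replicate, 1 from pooled replicates and 1 of optimal regions. Each entry has a signal value, deposited by the authors on a scale that is not given in the sources used here, and a summit offset, deposited as the distance from the region's start; the aligner and peak caller are not given in them either. Of the nuclear entries, 21859 of 22082 were 430 bp wide with a central summit, and 258 of the 280 members. There were 0 value columns that belonged to no sample and no pool.

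Genes came from Ensembl release 115, and small RNA symbols from RefSeq (475 of 475 matched). Scripts in Python 3.11.15 with pandas 2.3.3, numpy 2.4.6, scipy 1.17.1 and biopython 1.88 matched summits to genes, hosts, promoter windows and strings; the matching was tested on simulated positions. Entries were counted, and shares have 95% Wilson intervals without tests. Named genes were the 6 of highest signal in each class and host status, 3 regions on each side of the threshold, and listed genes with an optimal summit. Members and lists were chosen with earlier results of these data known. Alternatives were other distances, thresholds, windows, host and matching rules and each replicate alone. The control and the ce10 lists were not used here.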

Additional observations from a re-analysis of the deposited data

How the results depend on the processing

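Of 108 alternative values 84 stayed within the main value's interval. Some of these could move little or not at all, so the count overstates how stable the results are. All 280 members were already distinct regions, and keeping regions near tRNA genes added only 1. The host rule leaves independent genes unchanged. The optimal share of all members was 40.9% within 100 bp of a gene and 23.6% at the stricter threshold. That threshold also gave 29.7% for snoRNA regions (25.8% intronic, 33.8% independent) and 13.3% for snRNA regions (14.8% independent, 5.26% other). The snoRNA share was 31.8% within 500 bp. With the summit inside the gene it was 55.6% for intronic and 14.3% for other snoRNA genes. With a host on either strand 0 of 5 other snRNA regions were optimal. In each replicate alone the members were those of its own list, and its best 1145 nuclear regions stood for the optimal list. This gave 35.9% to 36.6% of all members, 38.1% to 39.5% for snoRNA and 31.5% for snRNA regions. The snoRNA shares were 29.7% to 35.5% for intronic, 43.4% to 45.5% for independent and 32.4% to 46.9% for other regions. The same snRNA sets gave 28.1% to 33.3%, 30.2% to 32.6% and 25% to 41.2%. Matching by any overlap gave 87.1% of members in replicate 2 and put 43.2% and 41.8% among the best of replicates 1 and 2. Promoter windows of 500 and 2000 bp held 20.6% and 49.1% of snoRNA summits and 19.0% and 56.2% of snRNA summits. Within 100 and 500 bp 37.9% and 58.4% of snoRNA genes had a region. The B box was in 28.6% of snoRNA windows of 400 bp. Wider windows and distances take in more sequence by construction, and a stricter threshold fewer regions; for the other values the cause was not tested. No paired analysis was possible because the series has 1 group.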
